A study of Mus musculus with 16 samples.

Results

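The 9 genes described here encode the enzymes that commit glucose to glycolysis in muscle: the hexokinases Hk1 and Hk2, the phosphofructokinase (PFK) subunits Pfkm, Pfkl and Pfkp, and the PFKFB enzymes Pfkfb1, Pfkfb2, Pfkfb3 and Pfkfb4. They were taken by symbol from a table of 14538 genes, all 9 were found once, and all 9 passed the minimum mean of 10 normalized counts that left 11841 genes for testing. The family was selected on measured values, since the difference of Pfkfb3 between GDF15-treated and pair-fed mice was already known, and that difference is given below as a description without a test.

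The tibialis anterior, a fast-twitch muscle at the front of the shin, was sequenced as whole tissue in 5 mice given vehicle, 6 given GDF15 and 5 that were pair-fed, each mouse giving 1 library. All mice were wild-type C57BL/6 males on a NASH diet, rich in fat and fructose, that began at 8 weeks of age, and were kept singly at about 29 °C. Recombinant GDF15, a circulating stress-induced cytokine that lowers appetite through a receptor in the hindbrain, was injected under the skin once a day in the morning. The protocol names doses of 0.3, 1 or 5 nmol for each kg of body weight, and the labels do not say which of them these mice received. Vehicle-treated mice were the controls without GDF15, and pair-fed mice were offered each day what GDF15-treated mice had eaten on the previous day. The pair-fed group therefore served to separate lower food intake from GDF15 itself. The labels give neither the length of treatment nor the age at death for these 16 mice.

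Hexokinase traps glucose in the cell as glucose 6-phosphate, and PFK makes the next irreversible step, the phosphorylation of fructose 6-phosphate. PFK is slowed by ATP and citrate and is strongly activated by a second fructose bisphosphate, a regulatory sugar that does not itself enter glycolysis. The PFKFB enzymes both make and break down that regulator, since each protein carries a kinase and a phosphatase domain. PFKFB3 has the strongest bias towards the kinase and is known as an inducible activator of glycolysis. In skeletal muscle HK2 is the insulin-regulated hexokinase, HK1 the more general form, and PFKM the muscle subunit of PFK.

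The muscle of pair-fed mice held more Hk2, Pfkm and Pfkfb4 RNA than that of vehicle-treated mice, by 21.4%, 14.4% and 30.7% on the fitted scale. Pfkfb3 stood 75.2% higher, but its pair-fed values led to the choice of the genes, and its call was lost under 8 of 29 alternative analyses. None of these 4 genes was called between GDF15-treated and vehicle-treated mice, where Hk2 stood 13.2% higher and Pfkfb3 32.5% lower without passing the test. Pfkfb3 had the largest fold difference between groups of the 9 genes, with means of 3060 normalized counts in vehicle-treated, 2047 in GDF15-treated and 5332 in pair-fed mice. Its GDF15 and pair-fed values led to the choice of the genes. This rank and the comparisons of Pfkfb3 with vehicle are therefore not independent of that choice. Pfkfb1, Pfkfb2, Hk1, Pfkl and Pfkp passed the test in no comparison. The tests were made with limma on log2(normalized count + 1), a log2 fold change is given on that scale, and p-values were adjusted over all 11841 genes.

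The starts of the 4 genes that were higher in pair-fed than in vehicle-treated mice are shown because these genes moved in the same direction. Each sequence is the stretch of 250 bases before a transcription start in RefSeq (build GRCm38.p6), written 5′ to 3′ on the strand of the gene. Capitals mark matches, on either strand, to CACGTG, the E-box bound by MYC, USF and clock factors, or to its inner part ACGTG, the core of the hypoxia response element, so that every E-box also counts as a match to the core. On the other strand the core reads CACGT. Pfkfb3 has 2 such starts, and for Pfkm the outermost of 4 is shown, of which it is the only one with an E-box. Of the other Pfkm starts, the second holds the core alone and the remaining starts hold neither motif.
Pfkfb3, first start, chr2:11553930-11554179, minus strand: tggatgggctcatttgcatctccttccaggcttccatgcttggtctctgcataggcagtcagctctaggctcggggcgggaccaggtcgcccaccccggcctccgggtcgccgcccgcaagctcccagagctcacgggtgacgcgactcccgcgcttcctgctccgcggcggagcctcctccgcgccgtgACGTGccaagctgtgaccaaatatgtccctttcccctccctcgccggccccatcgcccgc
Pfkfb3, second start, chr2:11502091-11502340, minus strand: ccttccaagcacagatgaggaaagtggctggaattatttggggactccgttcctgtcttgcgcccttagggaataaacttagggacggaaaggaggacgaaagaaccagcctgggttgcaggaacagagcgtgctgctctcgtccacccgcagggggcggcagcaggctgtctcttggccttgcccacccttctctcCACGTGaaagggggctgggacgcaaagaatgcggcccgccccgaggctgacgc
Pfkfb4, chr9:108991652-108991901, plus strand: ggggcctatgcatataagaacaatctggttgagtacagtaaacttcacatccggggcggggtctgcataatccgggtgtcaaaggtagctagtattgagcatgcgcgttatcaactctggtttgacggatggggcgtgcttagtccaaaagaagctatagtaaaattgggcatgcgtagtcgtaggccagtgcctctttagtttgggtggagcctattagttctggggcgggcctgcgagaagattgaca
Hk2, chr6:82774455-82774704, minus strand: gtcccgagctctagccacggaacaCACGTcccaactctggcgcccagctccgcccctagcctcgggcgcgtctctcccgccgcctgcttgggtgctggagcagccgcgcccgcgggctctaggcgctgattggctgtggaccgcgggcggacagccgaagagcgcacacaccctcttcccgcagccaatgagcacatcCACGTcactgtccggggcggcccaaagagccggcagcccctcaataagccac
Pfkm, first start, chr15:98092339-98092588, plus strand: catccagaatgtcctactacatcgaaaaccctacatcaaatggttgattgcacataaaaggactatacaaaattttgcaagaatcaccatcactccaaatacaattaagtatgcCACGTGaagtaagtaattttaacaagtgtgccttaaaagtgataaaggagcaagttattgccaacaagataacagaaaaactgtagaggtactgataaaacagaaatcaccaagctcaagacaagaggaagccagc

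The first Pfkfb3 sequence holds ACGTG with its first base 60 bases before the start, and the second holds the full E-box 53 bases before it. Hk2 holds CACGT at 226 and at 52 bases before its start, and the Pfkm sequence holds the E-box at 136 bases. The Pfkfb4 sequence holds neither motif. Over the 19 windows of the 9 genes, the E-box was found in 3 and the core in 7. These counts include windows of Pfkfb2, which passed the test in no comparison. Its start 1 has the E-box at 22 bases, and its start 3 has the core alone at 172 bases. The windows of Pfkfb1, Hk1, Pfkl and Pfkp hold neither motif. Among 32851 windows of the same length from RefSeq, 6.02% held the E-box and 16.6% the core. The windows of the 9 genes were also searched on both strands for TGACGTCA, the cAMP response element, and for TGTTTAC, a forkhead site. Each was found in 0 of the 19. Of all windows, 1.55% held the first and 3.17% the second. These matches describe the letters only, and no binding was measured.

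Muscle RNA was checked by its markers. All 8 skeletal muscle markers on the list, among them Acta1, Ckm and Myh4, were detected in every group, with sums of 2044878 to 2294091 normalized counts in vehicle-treated, 2059305 to 2294922 in GDF15-treated and 2209216 to 2493859 in pair-fed mice. The approximate depth was 9484951 to 15035455 reads per library. Pfkp rested on 51.0 to 140.2 approximate reads per library, Pfkfb2 on 66.1 to 176.0, Pfkl on 88.2 to 307.2 and Hk1 on 102.9 to 203.5. Hk2, Pfkm, Pfkfb1, Pfkfb3 and Pfkfb4 each rested on more than these in every library.

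Levels were compared between genes per kilobase of the longest annotated transcript. Pfkm was the most abundant, at 22710 ± 905 normalized counts per kilobase in vehicle-treated mice (SD, n = 5). Hk2 followed at 867 ± 49.0 and Pfkfb3 at 637 ± 214, whose ranges overlapped. Pfkfb1 at 258 ± 14.96 and Pfkfb4 at 202 ± 15.37 did not overlap. Pfkl at 46.3 ± 14.6, Hk1 at 36.7 ± 2.53 and Pfkfb2 at 30.0 ± 4.11 came next, each overlapping its neighbour, above Pfkp at 10.4 ± 2.27. In pair-fed mice Pfkfb3 reached 1111 ± 319 per kilobase, close to Hk2 at 1053 ± 78.5, with overlapping ranges. The order of these neighbours depends on the length used: with merged exons Hk2 stood above Pfkfb3 in all 3 groups and Pfkfb4 above Pfkfb1 in pair-fed mice. Within its family Hk2 held 95.9%, 96.4% and 96.6% of the hexokinase counts per kilobase in the vehicle, GDF15 and pair-fed groups, counting Hk1 and Hk2 alone. Pfkm likewise held 99.7%, 99.8% and 99.8% of those of PFK.

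Hk2 (chromosome 6, 82725025 to 82774454, minus strand) was measured at 4694.3, 4574.9, 5017.9, 4499.6 and 5107.7 normalized counts in the 5 vehicle-treated mice. The pair-fed mice had 5394.1, 5901.6, 5394.9, 6430.5 and 5910.6 (mice 2 to 6). Every pair-fed mouse thus lay above every vehicle-treated mouse. The means were 4779 ± 270 (SD, n = 5) and 5806 ± 433 (n = 5), a log2 fold change of 0.28 with a standard error of 0.06 (limma, adjusted p = 0.0193). This is a call on the adjusted p-value alone, since the log2 fold change of Hk2 did not reach 0.6. GDF15-treated mice ranged from 4904.3 to 5915.6 with a median of 5442 and overlapped both other groups. Their log2 fold change was 0.18 against vehicle (95% confidence interval 0.05 to 0.30, adjusted p = 0.249) and -0.10 against pair-feeding (-0.22 to 0.02, adjusted p = 0.488). As the whole muscle was taken, a change in the share of cells that hold a transcript and a change in the RNA per cell cannot be told apart.

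Hk1 (chromosome 10, 62268855 to 62379908, minus strand) was nearly level across the groups, with means of 157 ± 10.8, 158 ± 14.5 and 160 ± 12.4 normalized counts in the vehicle, GDF15 and pair-fed groups. Its log2 fold change was 0.02 for pair-fed against vehicle-treated mice (95% confidence interval -0.16 to 0.20) and 0.00 for GDF15 against vehicle (-0.17 to 0.18). Differences within these intervals remain compatible with the data. Exons of Hk1 overlap those of Hk1os on the opposite strand.

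Pfkm (chromosome 15, 98092589 to 98132451, plus strand) encodes the PFK subunit of muscle. Vehicle-treated mice had 65080.6, 62937.2, 69593.7, 65719.0 and 63583.3 normalized counts, and pair-fed mice had 77843.7, 69985.4, 74085.6, 77672.3 and 74344.8. The groups did not overlap, although pair-fed mouse 3 and vehicle-treated mouse 3 lay close together. The log2 fold change was 0.19 with a standard error of 0.04 (adjusted p = 0.0178), again a call on the adjusted p-value alone. Quantile normalization, which forces the same distribution on every library, reduced it to 0.04 (adjusted p = 0.411). GDF15-treated mice ranged from 65672.0 to 70606.1 with a median of 69314 and overlapped both groups, with log2 fold changes of 0.07 against vehicle (95% confidence interval -0.02 to 0.15, adjusted p = 0.574) and -0.13 against pair-feeding (-0.21 to -0.04, adjusted p = 0.161). Without pair-fed mouse 3 the latter was -0.15 (adjusted p = 0.0739). Exons of Pfkm overlap those of Senp1 on the opposite strand and of Gm26513 on the same strand.

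Pfkl (chromosome 10, 77986947 to 78010083, minus strand), the liver-type subunit, had 167.8, 267.5, 134.4, 147.9 and 145.8 normalized counts in vehicle-treated mice and 99.7, 174.0, 132.0, 119.8 and 85.8 in pair-fed mice. The groups overlapped, and vehicle-treated mouse 2 stood above all other mice. The log2 fold change was -0.49 (95% confidence interval -0.87 to -0.11, adjusted p = 0.154), which did not pass the test. Without pair-fed mouse 3 it was -0.63 with an adjusted p of 0.0469, past both thresholds, and without vehicle-treated mouse 2, the outlying high value, it was -0.32 with an adjusted p of 0.325. GDF15-treated mice had 110.6 to 149.7 normalized counts, with a log2 fold change of -0.31 against vehicle (-0.67 to 0.06, adjusted p = 0.556). Pfkp (chromosome 13, 6579768 to 6648777, minus strand), the platelet-type subunit, ranged from 52.0 to 130.9 normalized counts over the 16 mice, both in GDF15-treated mice. Its log2 fold change was -0.22 for pair-fed against vehicle-treated mice (-0.68 to 0.23, adjusted p = 0.631) and -0.21 for GDF15 against vehicle (-0.65 to 0.22, adjusted p = 0.776). Exons of Pfkp overlap those of Pitrm1 on the opposite strand.

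**Figure D1:**
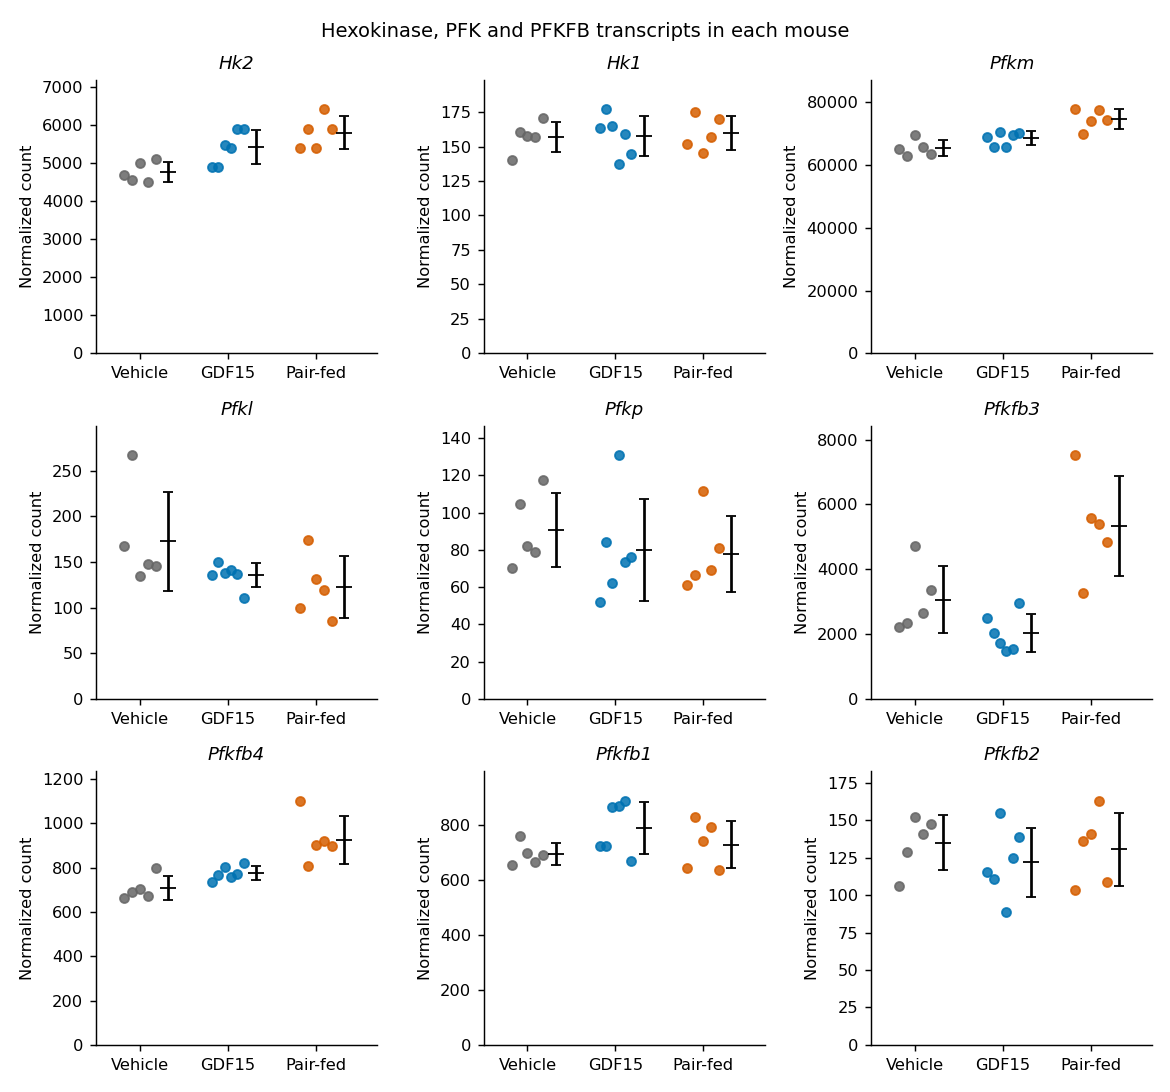
Normalized counts of the 9 genes in each mouse, 1 point per mouse in the order of the mouse numbers, with the mean and the SD of the group as a horizontal and a vertical bar. The pair-fed points of Hk2, Pfkm and Pfkfb4 all lie above the vehicle points, and for Pfkfb3 the lowest pair-fed mouse (3273.1) lies above the highest GDF15-treated mouse (2971.1) but within the vehicle range.

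Pfkfb3 (chromosome 2, 11471433 to 11554077, minus strand) had the largest log2 fold change of the 9 genes in size in each comparison. This rank is a description only, since each comparison uses values of Pfkfb3 that led to the choice of the genes. Vehicle-treated mice had 2207.3, 2340.7, 4716.5, 2663.9 and 3370.9 normalized counts. The GDF15-treated mice had 2513.4, 2028.6, 1735.9, 1480.8, 1553.1 and 2971.1. The pair-fed mice had 7528.5, 3273.1, 5594.3, 5411.7 and 4851.2. All pair-fed mice lay above all GDF15-treated mice, whereas pair-fed mouse 3 fell within the vehicle range, and 4 of the 6 GDF15-treated mice lay below every vehicle-treated mouse. Between GDF15-treated and pair-fed mice, the contrast that led to the choice of the family, the means of 2047 ± 589 (SD, n = 6) and 5332 ± 1531 (n = 5) gave a log2 fold change of -1.38, 2.60-fold lower with GDF15.

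Against vehicle (3060 ± 1030, n = 5), Pfkfb3 was 1.75-fold higher in pair-fed mice, a log2 fold change of 0.81 with a standard error of 0.23 (95% confidence interval 0.33 to 1.29, limma, adjusted p = 0.0609), past both thresholds. This comparison shares the pair-fed mice with the contrast that led to the choice of the family, so its p-value is not independent of that choice. It also depends on single mice: the log2 fold change and adjusted p were 0.71 and 0.137 without vehicle-treated mouse 1, 0.73 and 0.141 without vehicle-treated mouse 2, 0.77 and 0.108 without vehicle-treated mouse 4, 0.67 and 0.154 without pair-fed mouse 2, 0.79 and 0.128 without pair-fed mouse 5, and 0.83 and 0.107 without pair-fed mouse 6. Between GDF15-treated and vehicle-treated mice the log2 fold change was -0.57 (standard error 0.22, 95% confidence interval -1.03 to -0.10, adjusted p = 0.337), 1.48-fold lower with GDF15, which did not pass the test. This comparison shares the GDF15-treated mice with the contrast that led to the choice, so its p-value is not independent of that choice either. No other annotated exon overlaps those of Pfkfb3.

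Pfkfb4 (chromosome 9, 108991778 to 109032228, plus strand) encodes a second PFKFB form, first known from testis. It was measured at 664.2, 690.3, 703.5, 673.8 and 798.0 normalized counts in vehicle-treated mice and at 1101.6, 807.8, 901.7, 917.5 and 899.1 in pair-fed mice. The groups did not overlap, with pair-fed mouse 3 just above vehicle-treated mouse 5. The means of 706 ± 53.6 (SD, n = 5) and 926 ± 107 (n = 5) gave a log2 fold change of 0.39 with a standard error of 0.07 (adjusted p = 0.00606), the smallest adjusted p-value of the 9 genes against vehicle, and a call on the adjusted p-value alone.

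GDF15-treated mice had 732.6, 765.5, 802.7, 755.6, 770.5 and 819.3 normalized counts of Pfkfb4, between the groups and overlapping both. Their log2 fold change was 0.14 against vehicle (95% confidence interval -0.00 to 0.27, adjusted p = 0.466) and -0.25 against pair-feeding (-0.39 to -0.11, adjusted p = 0.0821). The latter call was lost under 16 of 29 alternatives. The adjusted p was 0.101 without vehicle-treated mouse 2, 0.119, 0.139, 0.109, 0.157 and 0.122 without GDF15-treated mice 1 to 5, and 0.176, 0.116, 0.183 and 0.14 without pair-fed mice 2, 4, 5 and 6, with log2 fold changes of -0.30 to -0.19 over all mice left out in turn.

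Pfkfb1 (chromosome X, 150588229 to 150643878, plus strand), the form of liver and muscle, ranged from 654.4 to 757.5 normalized counts in vehicle-treated, 667.4 to 887.3 in GDF15-treated and 635.9 to 829.2 in pair-fed mice. Its log2 fold change was 0.18 for GDF15 against vehicle (95% confidence interval 0.00 to 0.36, adjusted p = 0.443) and 0.07 for pair-fed against vehicle-treated mice (-0.12 to 0.25, adjusted p = 0.749). The 3 GDF15-treated mice with the lowest Pfkfb3 values (mice 3, 4 and 5) had the 3 highest Pfkfb1 values of all 16 mice. Pfkfb2 (chromosome 1, 130689182 to 130729253, minus strand), the heart form, ranged from 88.4 to 163.0 over the 16 mice, and its log2 fold changes were -0.16 (-0.46 to 0.15) for GDF15 and -0.06 (-0.38 to 0.26) for pair-feeding against vehicle. Exons of Pfkfb1 overlap those of Apex2, and exons of Pfkfb2 those of Yod1, on the opposite strand. Pfkfb2 also shares exon positions with Gm29427 on the same strand.

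**Figure D2:**
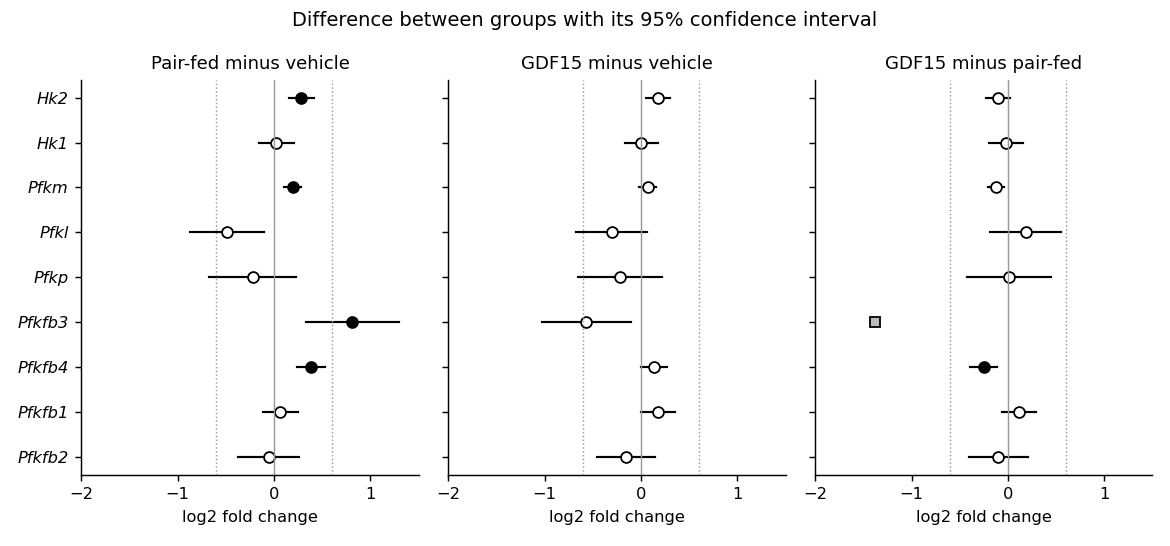
Log2 fold change of each of the 9 genes in the 3 comparisons, with its 95% confidence interval as a horizontal line except for Pfkfb3 in GDF15 minus pair-fed. Filled points have an adjusted p under 0.1, and dotted lines mark 0.6 in either direction. Hk2, Pfkm, Pfkfb3 and Pfkfb4 are filled for pair-fed minus vehicle, none is filled for GDF15 minus vehicle, and the grey square marks that Pfkfb3 value (-1.38), which was known when the genes were chosen and is not tested. The Pfkfb3 values against vehicle share mice with it and are not independent of that choice.

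Among the PFKFB transcripts, Pfkfb3 took the largest share on average in each group. Per kilobase, Pfkfb3 made up 55.4% ± 7.06 (SD, n = 5) of the 4 genes in vehicle-treated, 43.4% ± 8.15 (n = 6) in GDF15-treated and 65.3% ± 6.77 (n = 5) in pair-fed mice. Pfkfb1 made up 23.5%, 30.8% and 16.9%, Pfkfb4 18.4%, 23.0% and 16.1%, and Pfkfb2 2.69%, 2.79% and 1.79%. Pfkfb4 thus took a smaller share in pair-fed than in vehicle-treated mice on average while its own level was higher. The share of Pfkfb3 ran from 35.5% in GDF15-treated mouse 4 to 73.0% in pair-fed mouse 2, and the 3 groups overlapped. The shares are descriptions without a test, since they rest on the values that led to the choice of the genes.

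**Figure D3:**
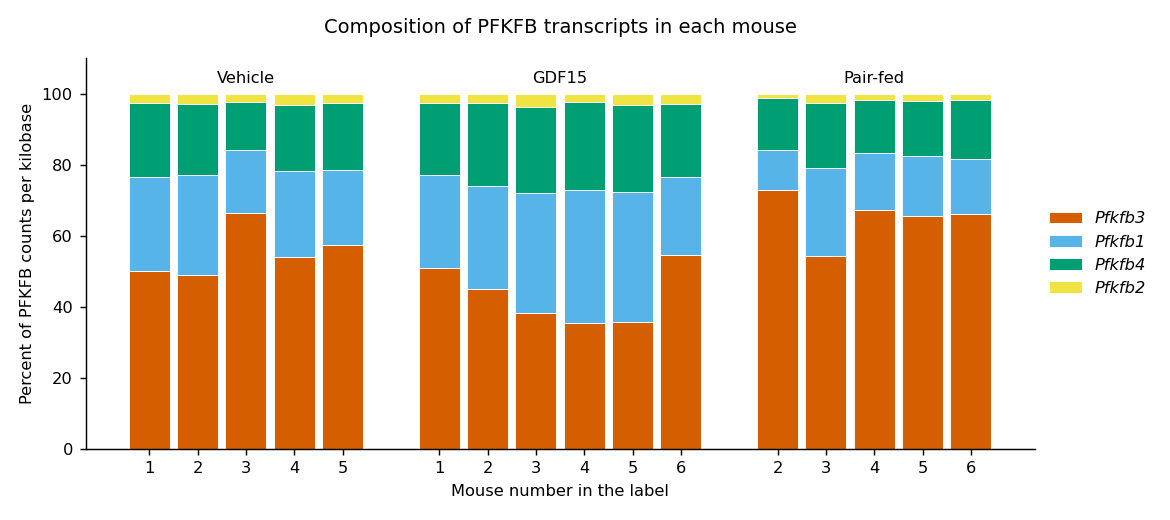
Share of each PFKFB gene in the summed PFKFB normalized counts per kilobase of longest transcript, in percent, 1 bar per mouse. The Pfkfb3 share averages 55.4% in vehicle-treated, 43.4% in GDF15-treated and 65.3% in pair-fed mice, and pair-fed mice 3 (54.4%), 5 (65.5%) and 6 (66.1%) lie within the vehicle range of 48.9% to 66.5%.

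Counts are given over the 8 genes other than Pfkfb3, whose values in GDF15-treated and pair-fed mice led to the choice of the genes. In pair-fed against vehicle-treated mice 3 of the 8 (Hk2, Pfkm and Pfkfb4) had an adjusted p under 0.1, all of them higher, where 6.37% of all tested genes were called and 3.2% were called as higher. The same 3 genes did not overlap between these groups, against 5.44% of all tested genes and 2.79% that lay higher without overlap. With the log2 fold change also above 0.6 in size, 0 of 8 were called by limma, against 0.819% of all tested genes and 0.329% called as higher, and 4 of 8 (these 3 and Pfkl) had an unadjusted p under 0.05, as 18.9% of all did. In GDF15-treated against vehicle-treated mice, 0 of 8 were called on the adjusted p-value from limma, where 0.769% of all tested genes were called (0.304% with both thresholds), 0 of 8 did not overlap, where 1.65% of all did not, and 2 of 8 (Hk2 and Pfkfb1) had an unadjusted p under 0.05, as 11% of all tested genes did. In GDF15-treated against pair-fed mice, 1 of 8 (Pfkfb4) had an adjusted p under 0.1 from limma, where 2.17% of all tested genes did, and 2 of 8 (Pfkfb4 and Pfkm) had an unadjusted p under 0.05, where 13.2% of all did. Among the 8, 0 passed both thresholds (0.279% of all tested genes did) and 0 lay without overlap (1.77% of all). The median log2 fold change of the 8 genes was 0.04 for pair-feeding and 0.04 for GDF15 against vehicle and -0.06 for GDF15 against pair-feeding, beside 0.001, 0.001 and 0.003 over all tested genes. The 3 comparisons share their groups in pairs and are therefore not independent of each other.

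Among the pair-fed mice, mouse 2 had the highest and mouse 3 the lowest value of Pfkfb3, of Pfkfb4 and of Pfkm. Hk2 did not follow this order, with mice 2 and 4 lowest and mouse 5 highest. The order was not particular to Pfkfb3, Pfkfb4 and Pfkm. Of the glycogen genes, Pygm, Phka1 and Phkg1 also had mouse 2 highest and mouse 3 lowest. The glycogen gene Gys1 and the later glycolysis gene Ldhb had the reverse order. Of the 8 muscle markers 4 were called in pair-fed against vehicle-treated mice, 2 higher and 2 lower, where 6.37% of all tested genes were called. Actn3, an actinin of fast glycolytic fibres, was higher in pair-fed than in vehicle-treated mice without overlap, with means of 159034 ± 16647 and 126122 ± 6071 normalized counts (n = 5 each, log2 fold change 0.33, adjusted p = 0.0167). Myh1, the myosin heavy chain of fast IIx fibres, was lower, with means of 104523 ± 22826 and 165385 ± 21120 (log2 fold change -0.68, adjusted p = 0.0123). Mb, the oxygen store myoglobin, was also lower, without overlap (log2 fold change -0.50, adjusted p = 0.0515). Ckm, the muscle creatine kinase, was higher (0.15, adjusted p = 0.0997). Myh4, the myosin heavy chain of fast IIb fibres (0.18, adjusted p = 0.272), Acta1 (0.10, adjusted p = 0.297), Tnnt3 (0.09, adjusted p = 0.375) and Ryr1 (0.01, adjusted p = 0.895) were not called. In GDF15-treated against vehicle-treated mice 0 of the 8 were called by limma, and 2 (Mb and Myh1) had an unadjusted p under 0.05, where 0.769% and 11% of all tested genes did. In GDF15-treated against pair-fed mice 1 of the 8 was called, Actn3, lower with GDF15 (log2 fold change -0.27, adjusted p = 0.0678), and 3 (Actn3, Myh1 and Myh4) had an unadjusted p under 0.05. Of all tested genes 2.17% were called in that comparison and 13.2% had an unadjusted p under 0.05. The part of these markers in the differences of Hk2, Pfkm, Pfkfb3 and Pfkfb4 was not tested.

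Markers of other cells were low beside those of muscle, and none of those in the table was at 0 in a whole group. The 5 endothelial markers summed to 4760 to 5626 normalized counts in vehicle-treated, 3982 to 4978 in GDF15-treated and 4136 to 4966 in pair-fed mice. Among them 1 of 5 was called in each comparison with vehicle, namely Kdr, the receptor for vascular endothelial growth factor, with log2 fold changes of -0.66 for GDF15 (adjusted p = 0.00116) and -0.50 for pair-feeding (adjusted p = 0.00473). Of all tested genes 0.769% were called for GDF15 and 6.37% for pair-feeding. All 5 had log2 fold changes below 0 against vehicle, from -0.66 to -0.07 for GDF15 and from -0.50 to -0.07 for pair-feeding, with 2 of 5 (Kdr and Cdh5) and 4 of 5 (Kdr, Tie1, Cdh5 and Pecam1) at an unadjusted p under 0.05. In the same 2 comparisons 11% and 18.9% of all tested genes were at an unadjusted p under 0.05. Between GDF15 and pair-feeding 0 of 5 were called by limma or had an unadjusted p under 0.05. The 5 leukocyte markers summed to 218 to 353, 183 to 413 and 155 to 369, and 1 of 5 was called, Ptprc, lower in pair-fed than in vehicle-treated mice (log2 fold change -0.97, adjusted p = 0.0634), where 6.37% of all tested genes were called. Of the lists for slow fibres, adipocytes, Schwann cells and fibroblasts (5 genes each) and red blood cells (3 genes in the table), 0 genes were called by limma in any comparison. At an unadjusted p under 0.05 there were 2 Schwann cell genes for GDF15 against pair-feeding and 1 fibroblast gene for GDF15 against vehicle, and 1 leukocyte gene for GDF15 against pair-feeding. The shares of all tested genes were 13.2% for GDF15 against pair-feeding and 11% for GDF15 against vehicle. The sums for slow fibres ran from 210 to 457 in vehicle-treated, 244 to 1837 in GDF15-treated and 209 to 1694 in pair-fed mice. Those for adipocytes ran from 76 to 394, 47 to 1170 and 209 to 581, for Schwann cells from 790 to 1210, 977 to 1340 and 547 to 1426, for fibroblasts from 2708 to 5385, 3692 to 6184 and 2745 to 5574, and for red blood cells from 260 to 3146, 838 to 2556 and 80 to 3743. All these ranges overlapped between the groups. In GDF15-treated against pair-fed mice the log2 fold changes of all 5 Schwann cell, 5 leukocyte, 5 fibroblast and 3 red blood cell markers were above 0, with medians of 0.52, 0.61, 0.35 and 1.17 beside 0.003 over all tested genes. Against vehicle those of all 5 slow fibre and 5 adipocyte markers were above 0, with medians of 0.46 and 0.81 for pair-feeding and 0.47 and 0.50 for GDF15. The part of these markers in the differences of Hk2, Pfkm, Pfkfb3 and Pfkfb4 was not tested.

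Of the 3 tested opposing phosphatases 1 was called in pair-fed against vehicle-treated mice, and so was Adpgk, both higher. Of all tested genes 6.37% were called in that comparison and 3.2% were called as higher. Adpgk, which uses ADP to phosphorylate glucose, was higher in pair-fed than in vehicle-treated mice, with means of 178 ± 16.1 and 139 ± 16.8 normalized counts (n = 5 each, log2 fold change 0.35 ± 0.09 as standard error, adjusted p = 0.04). Hk3 stood at means of 2.77, 3.56 and 2.24 and fell below the minimum count, and Hkdc1 was not analysed here. Of the opposing phosphatases, Tigar, which breaks down the fructose bisphosphate that activates PFK, had 2197.8 to 2580.1 normalized counts in vehicle-treated and 2588.6 to 3346.8 in pair-fed mice. These ranges did not overlap, and the log2 fold change was 0.29 (standard error 0.07, adjusted p = 0.0297). GDF15-treated mice had 2196.3 to 2685.0, with a log2 fold change of 0.01 against vehicle (adjusted p = 0.981) and -0.29 against pair-feeding (adjusted p = 0.0572). Fbp2, the fructose bisphosphatase of muscle, had means of 843, 873 and 816, and G6pc3, a general glucose-6-phosphatase, had 659, 678 and 728, and neither was called. Fbp1 was not analysed here.

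Of the remaining pathway, 1 of 5 glucose transporters was called in pair-fed against vehicle-treated mice (3.2% of all tested genes were called as higher), the widely expressed Slc2a1 (log2 fold change 0.48, standard error 0.13, adjusted p = 0.0448). Slc2a4, the insulin-regulated transporter of muscle, had a log2 fold change of 0.17 (adjusted p = 0.102) and was not called. Of the 13 tested enzymes of later glycolysis, from glucose phosphate isomerase to lactate dehydrogenase, 0 were called by limma in any comparison. In pair-fed against vehicle-treated mice 2 of them had an unadjusted p under 0.05, where 18.9% of all tested genes did. The median log2 fold change of the 13 was 0.06 (range -0.47 to 0.14). Of the 14 genes of glycogen synthesis and breakdown 4 were called in that comparison, all higher, beside the same 3.2% of all tested genes. They were Pygm, the glycogen phosphorylase of muscle (log2 fold change 0.22, adjusted p = 0.0289), Gyg, which primes glycogen (0.16, adjusted p = 0.0178), and the phosphorylase kinase subunits Phka1 (0.21, adjusted p = 0.0746) and Phkg1 (0.16, adjusted p = 0.0879). The median over all 14 was 0.14, beside 0.001 over all tested genes. Against vehicle, GDF15 gave 0 calls by limma in all 5 of these lists, with Adpgk and 1 of the glycogen genes (Gyg) at an unadjusted p under 0.05, as were 11% of all tested genes. Against pair-feeding, GDF15 gave calls for Tigar and for Phka1 (log2 fold change -0.22, adjusted p = 0.0908), where 2.17% of all tested genes were called.

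**Figure D4:**
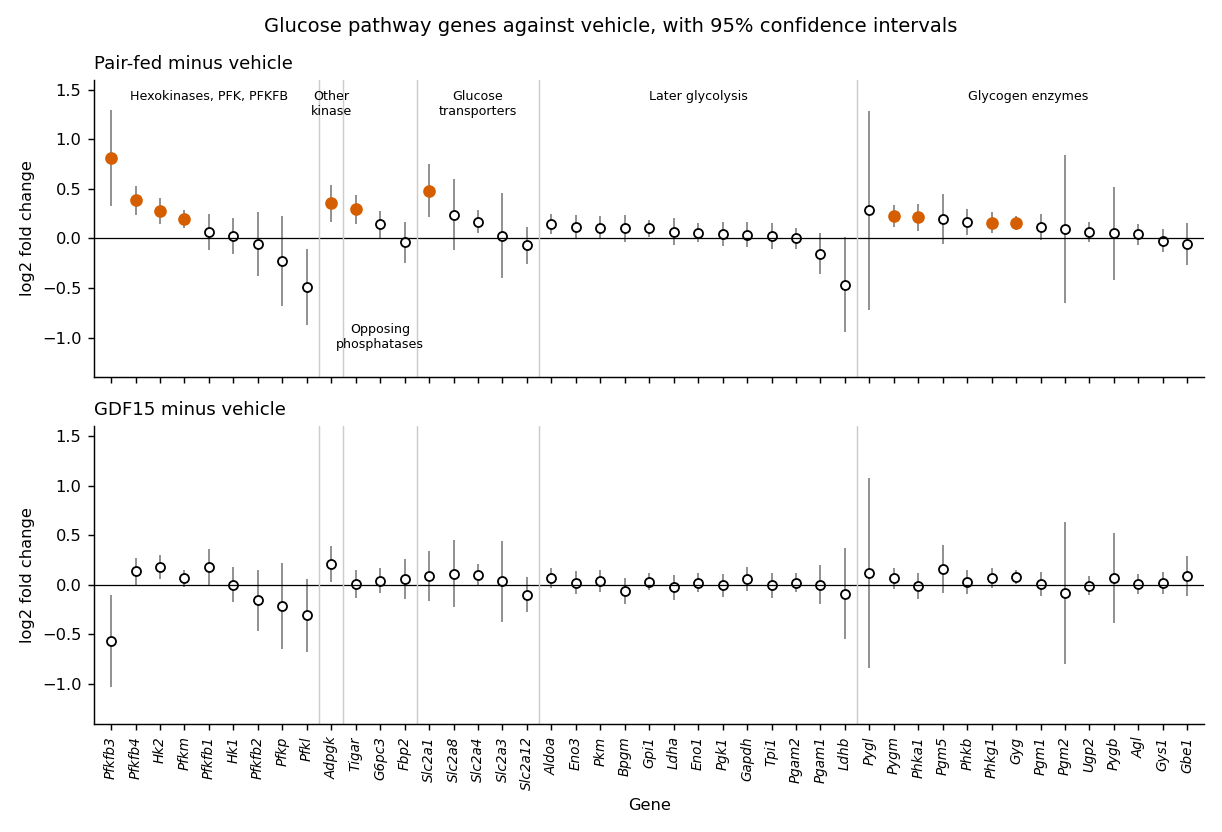
Log2 fold change against vehicle of the 9 genes and of the tested genes of 5 related lists, for pair-feeding above and GDF15 below, with 95% confidence intervals as vertical lines. Filled points have an adjusted p under 0.1. Of the filled points of the upper panel Pfkfb3 is the highest at 0.81, the 13 genes of later glycolysis have none, and the lower panel has none. The pair-fed values of Pfkfb3 led to the choice of the genes, and its call was lost under 8 of 29 alternative analyses.

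The 5 tested genes most like Pfkfb3 over the 16 libraries, by Pearson correlation on log2(normalized count + 1), were Irgm2, an interferon-induced GTPase (r = 0.90), Ky, a protein of the muscle cytoskeleton (0.87), Chac1, an enzyme that degrades glutathione (0.85), Fzd7, a Wnt receptor (0.85), and Epm2aip1, which binds the glycogen-linked phosphatase laforin (0.85). With the group means removed the correlations were 0.73, 0.64, 0.48, 0.63 and 0.58. The correlations describe these 16 libraries, which share their preparation and group differences. They carry no test, and the group levels of these 5 genes are not given as results because the genes were picked for their likeness to Pfkfb3.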

How the data were processed

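The authors used Trim Galore on the reads of directional libraries, Salmon for transcript quantities and DESeq2 for normalization (build mm10 in the submitters' processing notes; versions, annotation and strand setting not given in the sources used here). The authors deposited log2 values (7.32 to 19.96) in the form of the variance stabilizing transformation, not the normalized counts the design had assumed. These were returned to normalized counts. Low values of genes with a single transcript then lay within 0.1 reads of a whole number for 87.9% to 96.7% per library. Salmon's estimates in other genes are not whole, so no count test was run and depths are approximate.

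Genes with a mean of at least 10 entered limma 3.58.1 (trend, R 4.3.3) as log2(normalized count + 1), with all 16 libraries, two-sided, with Benjamini-Hochberg adjustment over all 11841. This scale understates fold changes of low genes. The study's thresholds were used (adjusted p under 0.1, log2 fold change of more than 0.6 either way), and the first also alone. The test was checked on simulated data. Positions and lengths came from GENCODE vM21 (GRCm38).

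The genes and lists were chosen with earlier results of these data known. Named are the 9 genes, Adpgk, Hk3, Hkdc1 and the opposing phosphatases, list genes past both thresholds (Myh1, Kdr, Ptprc), and the 5 genes most like Pfkfb3. Slc2a1, Slc2a4, Pygm, Gyg, Phka1, Phkg1, Gys1, Ldhb, Tie1, Cdh5, Pecam1 and the muscle markers other than Myh1 were named after their values were seen. A further listed gene is not reported here. Mouse numbers were treated as names only. The alternatives were other pseudocounts, minimum counts, scalings, spread estimates, thresholds and lengths, the deposited values, depth as a covariate, the mouse number as a block, and each library left out.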

Additional observations from a re-analysis of the deposited data

Results flagged for a closer look

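Of 39 groups of values examined (13 genes in 3 groups), 3 held a mouse whose gap to its nearest neighbour, divided by the range of the group, was above Dixon's 95% critical value. Chance gives about 1 in 20 such groups. For Pfkl, vehicle-treated mouse 2 had 267.5 normalized counts, far above the next value of 167.8 (gap over range 0.749, critical value 0.71). GDF15-treated mouse 6 had 110.6 normalized counts of Pfkl, below the next value of 135.8 (0.645, critical value 0.625). For G6pc3, vehicle-treated mouse 4 had 741.7 normalized counts, above the next value of 651.5 (0.731, critical value 0.71).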

How the results depend on the processing

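Under all 29 alternatives with a fit, Pfkfb4 and Hk2 kept an adjusted p under 0.1 in pair-fed against vehicle-treated mice (log2 fold changes of 0.29 to 0.43 and 0.23 to 0.31), Pfkfb3 kept its direction in that comparison (0.67 to 0.98) but lost its call under 8 of the 29, and Pfkfb3 between GDF15-treated and pair-fed mice lay between -1.54 and -1.24. Pfkm lost its call in pair-fed against vehicle-treated mice under 2 of the 29. No called value changed sign. Of the 8 genes other than Pfkfb3, 1 (Pfkfb4) was called on the adjusted p-value in GDF15-treated against pair-fed mice. This count was 0 without a trend, with library quality weights, with only the 2 groups compared, with total count scaling and with depth as a covariate, and ran from 0 to 2 with each mouse left out, the second call being that of Pfkm without pair-fed mouse 3. The count of genes past both thresholds covered all 9 and so includes Pfkfb3, whose values led to the choice of the genes, and nothing is read from it. In pair-fed against vehicle-treated mice it was 1, which was 0 without a trend, 0 at an adjusted p under 0.05, 4 on the adjusted p-value alone and 0 to 2 with each mouse left out, where 0.819% of all tested genes passed both thresholds and 6.37% the adjusted p-value alone. In GDF15-treated against pair-fed mice it was 2 on the adjusted p-value alone (2.17% of all), namely Pfkfb4 and Pfkfb3. In that contrast Pfkfb3 led to the choice of the genes and is not counted as a result. The causes were not tested. Pfkp, Pfkfb2, Pfkl and Hk1 rested on the fewest reads.

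The mouse numbers showed no pairing over all tested genes: deviations from the group means of mice with the same number correlated at -0.10 to 0.07 over 14 pairs, and 4 of 28 checks found a mouse closest to its own number. This cannot show whether a number links a pair-fed mouse to a GDF15-treated mouse by food intake, since matched intake need not make whole profiles correlate. With the mouse number as a replicate block, 2 of the 8 genes other than Pfkfb3 (Pfkfb4 and Hk2) were called on the adjusted p-value and 0 of the 9 passed both thresholds in pair-fed against vehicle-treated mice, where this fit called 2.01% and 0.473% of all tested genes. In GDF15-treated against pair-fed mice 0 of the 8 were called on the adjusted p-value with the block, where 2.2% of all tested genes were.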
